A study of Homo sapiens with 8 samples.

Results

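The 5 subunit genes of the transcription factor NF-kB and 5 of its feedback regulators were followed in MDA-MB-231 cells after ADAR1 siRNA and after control siRNA. The genes were chosen by name and matched by NCBI gene number, and all 10 were present among the 19892 genes measured. They were chosen with earlier results of these data known, so counts over the 10 are no independent evidence of a direction. MDA-MB-231 cells are a widely used triple-negative breast cancer line. ADAR1, encoded by ADAR, is an enzyme that edits adenosines within double-stranded RNA into inosines. The samples fell into 4 groups of 2 libraries, 8 in all: ADAR1 siRNA Input, control siRNA Input, ADAR1 siRNA Ribo-seq and control siRNA Ribo-seq. Input libraries were cut from a gel as longer RNA fragments and stand for RNA. Ribo-seq libraries were cut from it at footprint size and stand for RNA covered by ribosomes. All 8 libraries come from the same cell line and all cells received an siRNA. No source used here gives the siRNA sequence, how many siRNAs were used or how long after transfection cells were taken, so an effect of ADAR1 loss and an off-target effect of the siRNA cannot be told apart. The labels do not state whether replicates were grown separately; p-values therefore describe the spread of these libraries alone, and that spread may be technical.

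NF-kB is a family of dimers built from 5 related proteins. RELA, RELB and REL carry a domain that activates transcription, whereas NFKB1 and NFKB2 are made as long precursors that are processed to the DNA-binding subunits p50 and p52. In resting cells the dimers are held inactive by IkB proteins, among them those encoded by NFKBIA and NFKBIE. Signals from cytokine receptors or from sensors of double-stranded RNA lead to IkB degradation, and the released dimers then activate inflammatory genes together with genes of their own inhibitors. NFKBIA, TNFAIP3, BIRC3, RELB and NFKB2 are textbook examples of such targets. TNFAIP3 encodes A20, an enzyme that edits ubiquitin chains and dampens the signal, BIRC3 encodes the ubiquitin ligase cIAP2, and BCL3 encodes a nuclear IkB-like protein that works with p50 or p52. MDA-MB-231 cells are known for NF-kB activity without added stimulus.

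The library-wide picture was as follows. Estimated counts totalled 15732757 to 17153716 in Input and 10492223 to 14875465 in Ribo-seq libraries. ADAR itself stood at 14.8 and 30.6 TPM in ADAR1 siRNA Input, against 106.2 and 110.2 TPM in control Input. TPM is a level per transcript length and library. In Ribo-seq ADAR stood at 1.55 and 8.41 TPM with ADAR1 siRNA, against 19.1 and 20.3 TPM with control siRNA. Replicate 1 of the ADAR1 siRNA thus kept 13.7% of the control RNA level and replicate 2 kept 28.3%, and the 2 replicates also lay further apart from each other than the controls did (SD of log2 differences 0.398 against 0.276 in Input and 0.489 against 0.405 in Ribo-seq). The mesenchymal markers VIM, CD44, ZEB1, EGFR and AXL were detected in every library, with summed levels of 5875 to 6325 TPM in ADAR1 siRNA Input and 5929 to 5935 TPM in control Input. The receptor gene ESR1 reached at most 0.137 TPM and PGR at most 0.108 TPM in any library. The receptor gene ERBB2, by contrast, stood at 29.5 and 32.4 TPM in ADAR1 siRNA Input and 31.1 and 35.5 TPM in control Input. The leukocyte gene PTPRC reached at most 0.377 TPM, whereas CD68 stood at 178.8 to 183.3 TPM in ADAR1 siRNA Input and 231.5 to 232.4 TPM in control Input. The 5 luminal epithelial markers summed to 1504 to 1554 TPM in ADAR1 siRNA Input and 1762 to 1767 TPM in control Input. In Ribo-seq the luminal markers summed to 542.1 to 806.0 TPM with ADAR1 siRNA and 1058 to 1287 TPM with control siRNA. The mesenchymal markers there summed to 2532 to 3442 TPM with ADAR1 siRNA and 3527 to 3834 TPM with control siRNA, with VIM at 830.8 and 1473 TPM, against 1882 and 2275 TPM. The part of these shifts in the results was not tested.

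Sequences around the starts of the members were examined for the motif that NF-kB dimers bind, because several members are known targets of the factor they regulate. RefSeq start-site windows for GRCh38.p14, each 300 bases long with 250 of them before the start, were found for 8 of the 10 members (12 windows, since some genes have several starts); RELB and NFKBIE were not matched. The kappaB consensus was searched on both strands, and overlapping matches were merged into 1 stretch. A stretch was present in 8 of the 12 windows and in 7 of the 8 genes, all but RELA, beside 11.3% of 35116 windows and 13.3% of 27305 genes in the whole table. BIRC3 and TNFAIP3 are shown over the 250 bases before their starts, as the 2 members with the largest RNA differences described further on; capitals mark the kappaB stretches. The windows are chr11:102317234-102317483 (plus strand) for BIRC3 and chr6:137867009-137867258 (plus strand) for TNFAIP3, both in GRCh38.p14.
BIRC3: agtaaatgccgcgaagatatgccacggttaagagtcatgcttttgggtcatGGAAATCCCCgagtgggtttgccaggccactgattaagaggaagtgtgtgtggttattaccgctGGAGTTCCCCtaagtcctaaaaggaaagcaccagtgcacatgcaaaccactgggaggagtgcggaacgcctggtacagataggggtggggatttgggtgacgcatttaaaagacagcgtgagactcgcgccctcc
TNFAIP3: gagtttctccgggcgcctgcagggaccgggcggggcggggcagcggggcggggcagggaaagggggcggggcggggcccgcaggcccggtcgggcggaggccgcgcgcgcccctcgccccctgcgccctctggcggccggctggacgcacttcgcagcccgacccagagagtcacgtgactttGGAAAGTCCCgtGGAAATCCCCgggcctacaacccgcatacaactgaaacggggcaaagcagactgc

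In BIRC3 the stretches began 199 and 135 bases before the start, and in TNFAIP3 67 and 55 bases before it. Both genes hold the same 10 bases, GGAAATCCCC; searched on both strands, this string was present in 39 of the 35116 windows (0.111%). It was picked after it had been seen in both promoters. The stretches of the other members are given with 8 bases on either side, to show how close they are to one another.
NFKB1: acgtcagtGGGAATTTCCagccagga
REL: tcagccgcGGGAAATTCCCctcccgcc
NFKBIA: actggcttGGAAATTCCCcgagcctg
BCL3: ggctgcagGGGAAGTCCCggcgcccg
NFKB2 window 3: gtattttcGGGACTTTCCtaagctgc
NFKB2 window 2: aacgtcatGGGAATTCCCCcctccggg

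These stretches lie at chr4:102501310-102501319 for NFKB1, chr2:60881527-60881537 for REL, chr14:35404821-35404830 (minus strand) for NFKBIA and chr19:44748710-44748719 for BCL3. Those of NFKB2 lie at chr10:102395684-102395693 in window 3 and chr10:102394471-102394481 in window 2, and NFKB2 holds 1 further stretch in each of these windows. The BCL3 stretch began at position 3, just after the annotated start, and the other stretches shown began before their starts. NFKB1 and NFKBIA carry the same 10 bases read from opposite strands. A match describes these letters only and was not tested for binding.

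Levels were compared first among the members in control cells. In control Input RELA was the most abundant subunit RNA, at 120.5 and 103.5 TPM, followed by NFKB2 at 48.8 and 52.3 TPM and NFKB1 at 48.2 and 46.7 TPM. REL stood at 14.1 and 13.8 TPM and RELB at 12.4 and 13.5 TPM. Among regulators NFKBIA was highest at 72.0 and 67.5 TPM, then BIRC3 at 41.8 and 43.1 TPM, NFKBIE at 26.0 and 28.0 TPM, BCL3 at 21.2 and 23.1 TPM, and TNFAIP3 lowest at 6.36 and 6.84 TPM. Over the 10 genes no neighbours in this order overlapped between their 2 control libraries. RELA held 49.4% and 45.03% of the summed subunit RNA in control Input and 66.7% and 66.8% of the summed subunit footprints in control Ribo-seq, so its share was larger among footprints in both replicates.

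**Figure D1:**
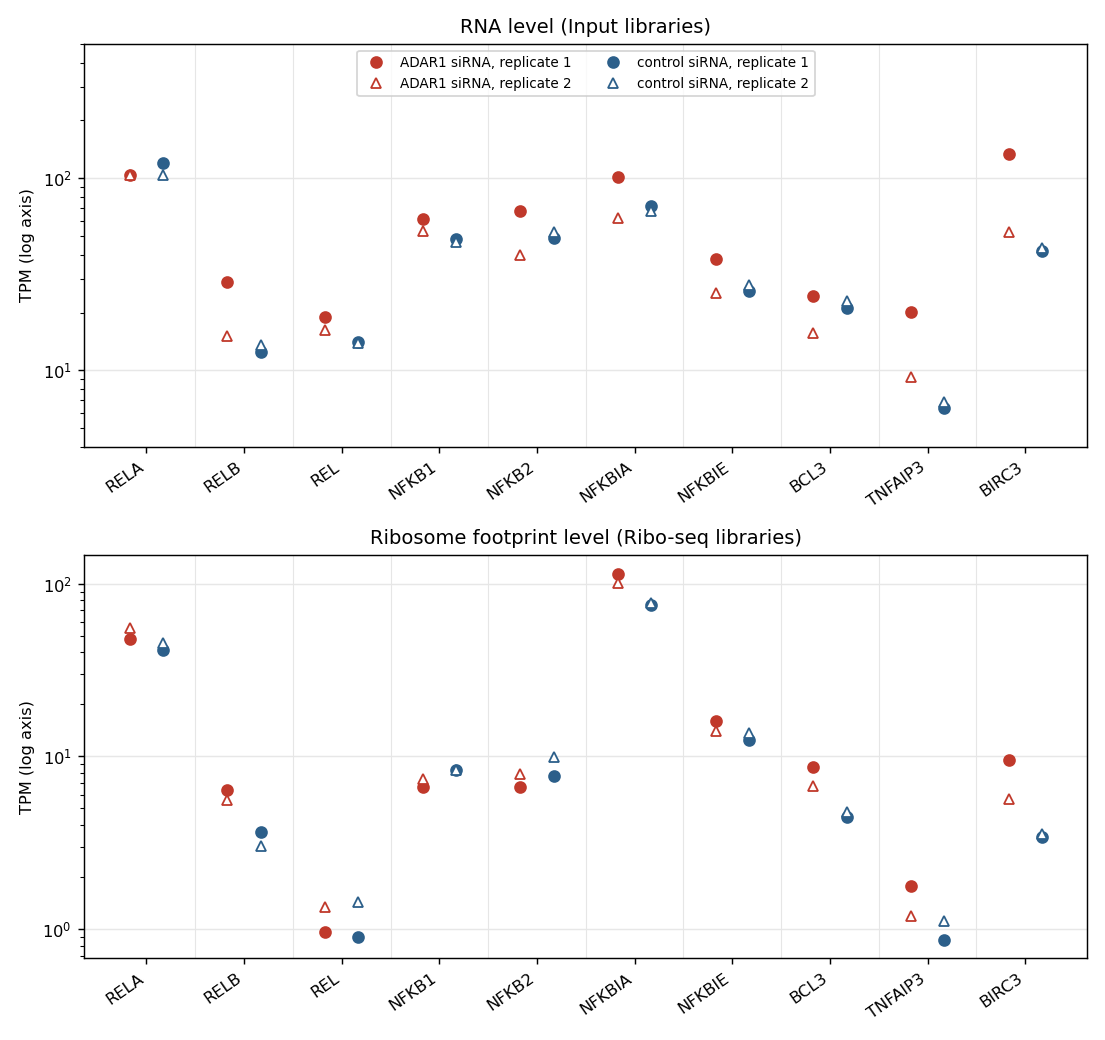
TPM of each NF-kB gene in each library (log axes), with Input above and Ribo-seq below; red points are ADAR1 siRNA and blue points control siRNA, filled circles replicate 1 and open triangles replicate 2. In Input, BIRC3 and TNFAIP3 show the widest gap between red and blue in replicate 1, whereas NFKB1 is above its controls in Input and below them in Ribo-seq.

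In RNA, BIRC3, TNFAIP3 and RELB had the largest differences, REL and NFKB1 smaller ones, and none of the 10 passed the test over all genes. In such bulk samples fewer cells with a transcript and less of it per cell cannot be told apart. BIRC3, whose ligase sits on TNF receptor complexes, had 133.8 and 52.5 TPM in ADAR1 siRNA Input, against 41.8 and 43.1 TPM in control Input. Both ADAR1 siRNA libraries lay above both controls, but replicate 1 lay far higher than replicate 2. By edgeR's quasi-likelihood test the log2 fold change was 1.10 ± 0.36 (SE, 2 against 2 libraries) with a Benjamini-Hochberg adjusted p of 0.137.

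TNFAIP3 had 20.2 and 9.20 TPM in ADAR1 siRNA Input, against 6.36 and 6.84 TPM in control Input. The groups did not overlap, and replicate 1 was again the high one; the log2 fold change was 1.11 ± 0.33 (edgeR adjusted p = 0.116). DESeq2 called this gene and no other member. RELB, the activating subunit of the alternative NF-kB pathway, had 28.7 and 15.1 TPM with ADAR1 siRNA, against 12.4 and 13.5 TPM with control siRNA. Its replicate 2 lay just above the controls, and the log2 fold change was 0.73 ± 0.27 (edgeR adjusted p = 0.166).

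REL, which encodes c-Rel, had 18.9 and 16.2 TPM in ADAR1 siRNA Input, against 14.1 and 13.8 TPM in control Input. Here the 2 replicates were closer to each other, the groups did not overlap, and the log2 fold change was 0.31 ± 0.08 (edgeR adjusted p = 0.0947). Estimated Input counts of REL were fractional, at 1368.41 and 1272.38 with ADAR1 siRNA, against 1016.91 and 1068.04 with control siRNA. Reads shared with another gene may therefore enter its RNA values. NFKB1 had 61.5 and 53.5 TPM with ADAR1 siRNA, against 48.2 and 46.7 TPM with control siRNA. These groups did not overlap either, at a log2 fold change of 0.23 ± 0.08 (edgeR adjusted p = 0.138).

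The other 5 genes overlapped between groups in RNA. NFKBIA had 101.4 and 61.8 TPM in ADAR1 siRNA Input, against 72.0 and 67.5 TPM in control Input, so that the 2 ADAR1 siRNA libraries lay on opposite sides of the controls. NFKBIE (37.9 and 25.1 TPM, against 26.0 and 28.0 TPM), NFKB2 (68.0 and 40.0 TPM, against 48.8 and 52.3 TPM) and BCL3 (24.4 and 15.6 TPM, against 21.2 and 23.1 TPM) had the same arrangement. RELA stood at 103.6 and 104.0 TPM with ADAR1 siRNA, against 120.5 and 103.5 TPM with control siRNA. Log2 fold changes of these 5 lay between -0.18 ± 0.20 for BCL3 and 0.20 for both NFKBIA (SE 0.19) and NFKBIE (SE 0.17).

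Counted together, 0 of the 10 genes passed in RNA, where 0.253% of 12644 tested genes did (32 genes by edgeR, 10 or 0.0791% higher and 22 or 0.174% lower; 5 higher and 6 lower with upper-quartile scaling). ADAR, the target of the siRNA, did not pass in RNA either (log2 -2.26 ± 0.32, edgeR adjusted p = 0.0527). A count of 0 therefore does not show that RNA of the 10 genes was unchanged. At an unadjusted p under 0.05, 5 of 10 were higher and 0 lower (edgeR), beside 11.8% of all tested genes higher and 13.5% lower (25.3% in either direction). DESeq2 called 1 of the 10 and limma-voom 0. Groups did not overlap, with ADAR1 siRNA higher, for 5 of the 10, beside 29.2% of tested genes, and lower for 0 of the 10, beside 27.9%. Log2 fold changes were above 0 for 8 of 10, beside 50.6% of tested genes. The median log2 fold change of the 10 was 0.22 and that of all tested genes 0.00.

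Footprints gave the one call among the members: BIRC3 rose 2.44-fold. It had 9.47 and 5.70 TPM in ADAR1 siRNA Ribo-seq, against 3.40 and 3.54 TPM in control Ribo-seq. Both ADAR1 siRNA libraries lay well above the controls, replicate 1 higher than replicate 2, and the log2 fold change was 1.29 ± 0.30 (SE, 2 against 2 libraries; edgeR adjusted p = 0.0490). Estimated counts behind these values were fractional, at 283.99 and 159.88 with ADAR1 siRNA, against 76.04 and 64.6 with control siRNA. In each library they added up to a whole number with those of its paralogue BIRC2, so reads shared with BIRC2 appear to enter them. The call sits at the threshold. It was lost with limma-voom (log2 1.21, adjusted p = 0.0741) and on the TPM scale (0.91, limma adjusted p = 0.121), and without control Ribo-seq replicate 2 (1.27, edgeR adjusted p = 0.0501). Without ADAR1 siRNA Ribo-seq replicate 1 the value was 0.78 and without replicate 2 it was 1.62, both still called by edgeR.

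RELB, NFKBIA and BCL3 footprints lay just short of the threshold. RELB had 6.40 and 5.58 TPM in ADAR1 siRNA Ribo-seq, against 3.67 and 3.02 TPM in control Ribo-seq. All libraries of one group lay above all of the other and the replicates were close, at a log2 fold change of 0.93 ± 0.22 (edgeR adjusted p = 0.0518). NFKBIA, the classical inhibitor that NF-kB induces against itself, had 114.5 and 100.5 TPM with ADAR1 siRNA, against 74.8 and 77.7 TPM with control siRNA. Unlike its RNA, its footprints did not overlap between groups, and the log2 fold change was 0.60 ± 0.16 (edgeR adjusted p = 0.0653). BCL3 had 8.71 and 6.72 TPM in ADAR1 siRNA Ribo-seq, against 4.48 and 4.74 TPM in control Ribo-seq. Its groups did not overlap, at a log2 fold change of 0.89 ± 0.23 (edgeR adjusted p = 0.0609). DESeq2 called RELB and NFKBIA beside BIRC3.

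RELA, NFKBIE and TNFAIP3 footprints differed by less, or with more error. RELA had 47.9 and 55.2 TPM with ADAR1 siRNA, against 41.3 and 45.6 TPM with control siRNA, a log2 fold change of 0.34 ± 0.14 (edgeR adjusted p = 0.183). NFKBIE had 16.1 and 14.1 TPM in ADAR1 siRNA Ribo-seq, against 12.4 and 13.7 TPM in control Ribo-seq, a log2 fold change of 0.31 ± 0.19. In both genes the groups were separate in TPM by a narrow margin. TNFAIP3 had 1.77 and 1.19 TPM with ADAR1 siRNA, against 0.866 and 1.12 TPM with control siRNA, and its replicate 2 was close to the higher control. Only 99 and 62 estimated counts lay behind its ADAR1 siRNA values and 32 and 40 behind its control values, and the log2 fold change was 0.78 ± 0.35 (edgeR adjusted p = 0.211).

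NFKB1, NFKB2 and REL footprints did not lie above their controls. NFKB1 had 6.64 and 7.39 TPM in ADAR1 siRNA Ribo-seq, against 8.38 and 8.31 TPM in control Ribo-seq. Both ADAR1 siRNA libraries lay below both controls, the reverse of its RNA, though the log2 fold change of -0.17 ± 0.16 did not pass (edgeR adjusted p = 0.574). NFKB2 had 6.68 and 7.95 TPM with ADAR1 siRNA, against 7.67 and 9.87 TPM with control siRNA, which overlap. REL had 0.956 and 1.34 TPM in ADAR1 siRNA Ribo-seq, against 0.895 and 1.43 TPM in control Ribo-seq. Between 28.1 and 55.2 estimated counts per library lay behind the REL values, so a moderate change would not be detectable at this depth (log2 0.11 ± 0.37).

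Of the 10 genes, 1 rose, 0 fell and 9 did not pass in Ribo-seq, beside 1.88% of 12000 tested genes that rose and 1.67% that fell, 3.54% in all (225 higher and 200 lower by edgeR; 311 and 176 with upper-quartile scaling). With an unadjusted p under 0.05, 5 of 10 were higher (BIRC3, RELB, BCL3, NFKBIA and RELA), beside 12.6% of tested genes, and 0 were lower, beside 11.3% (24% in either direction). In TPM, 7 of 10 lay wholly above the controls and 1 wholly below, beside 23% and 31.2% of tested genes. Log2 fold changes were above 0 for 8 of 10, beside 54.4% of tested genes. The median log2 fold change of the 10 was 0.47, against 0.05 for all tested genes.

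**Figure D2:**
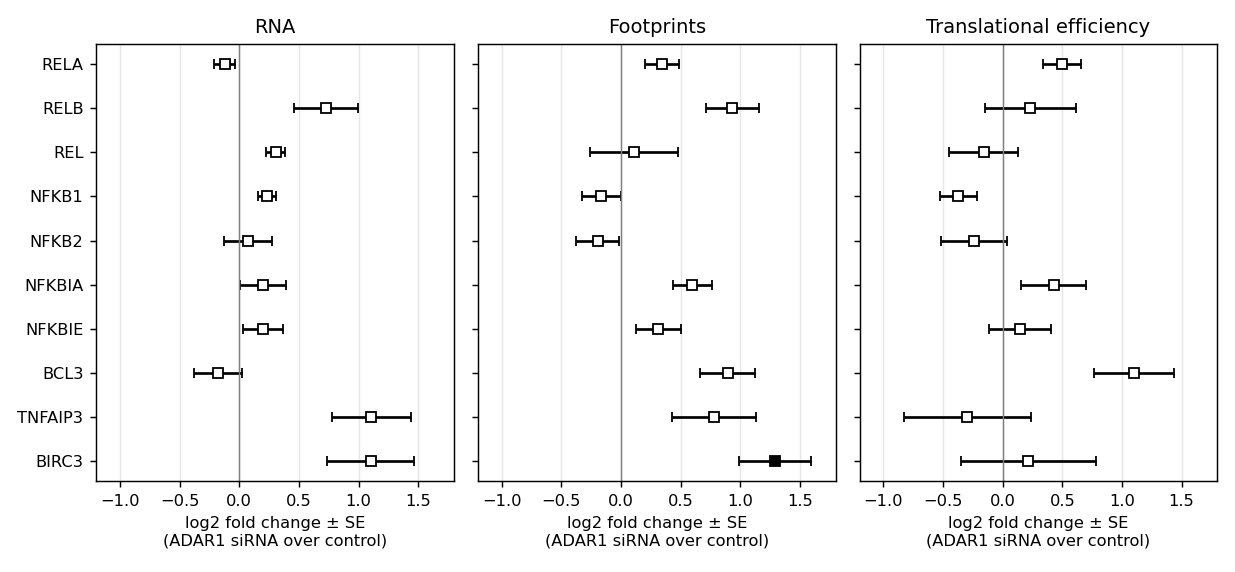
Log2 fold change (ADAR1 siRNA over control siRNA) of the 10 genes in RNA, footprints and translational efficiency, from edgeR; bars are ± SE (2 against 2 libraries per assay) and filled squares passed an adjusted p of 0.05. BIRC3 footprints, at 1.29, hold the only filled square.

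The differences were unequal between the 2 ADAR1 siRNA replicates, most of all in RNA. Set against the control mean, BIRC3 RNA stood at 315% in replicate 1 and 124% in replicate 2, TNFAIP3 at 306% and 139%, and RELB at 221% and 116%. In Input, 9 of the 10 genes were higher in replicate 1 than in replicate 2, and 7 were at least 1.5-fold higher. Among the 11098 genes averaging 50 counts or more, 64.3% were higher in replicate 1 and 4.65% were at least 1.5-fold higher. Footprints were closer together: 1 of 10 genes, BIRC3 at 273% and 164% of the control mean, was at least 1.5-fold higher in replicate 1, beside 2.30% of 9974 genes. Still, 6 of 10 were higher in replicate 1, beside 31.7% of those genes. RELB footprints stood at 191% and 167%, NFKBIA at 150% and 132%, BCL3 at 189% and 146%, and TNFAIP3 at 178% and 120%. Residual ADAR RNA was lower in replicate 1 (13.7% against 28.3% of the control mean), and the part of that difference in these values was not tested.

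Leaving out libraries showed how far RNA values rest on replicate 1. Without ADAR1 siRNA Input replicate 1, BIRC3 had a log2 fold change of 0.33, TNFAIP3 of 0.48 and RELB of 0.24, whereas NFKB2, NFKBIA and NFKBIE turned to -0.30, -0.15 and -0.08. Without replicate 2 these 6 values were 1.60, 1.54, 1.09, 0.37, 0.48 and 0.43. Either removal leaves the spread to be estimated from the 2 control libraries alone, which were close together, and many more genes then pass: 6 and 9 of the 10 members, beside 4119 and 5420 genes of all tested, against 0 members and 32 genes with all 4 libraries. Without either control Input library, 0 members and 0 genes of all passed by edgeR, at 1055 genes (without control replicate 1) and 958 genes (without control replicate 2) with an unadjusted p under 0.05.

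**Figure D3:**
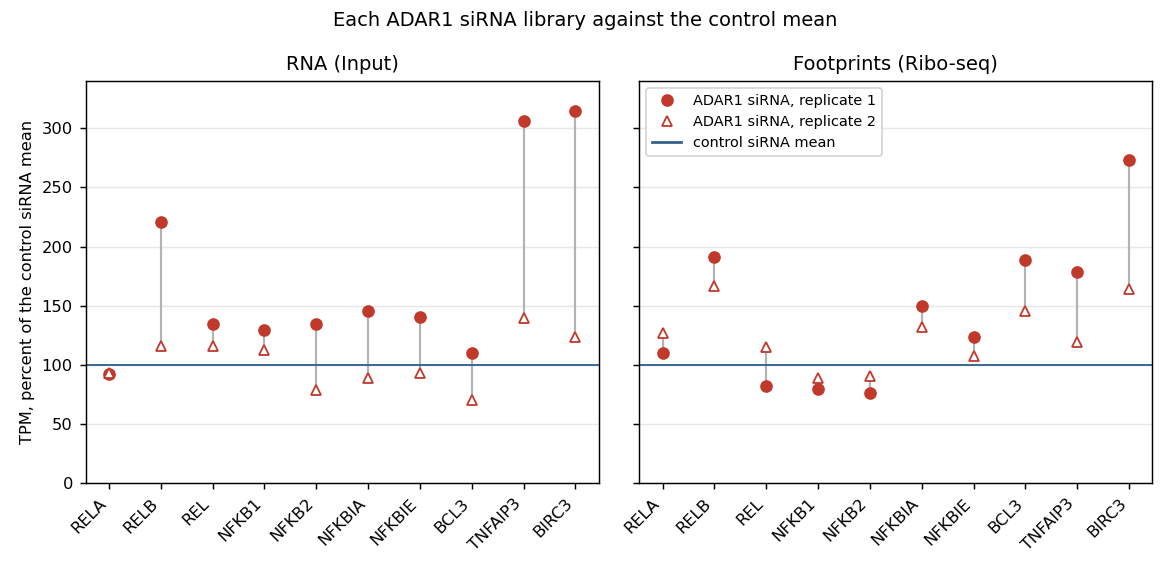
TPM of each ADAR1 siRNA library as a percent of the mean of the 2 control siRNA libraries (blue line), for RNA on the left and footprints on the right; grey lines join the 2 replicates of a gene. RNA of BIRC3 spans 124% to 315%, while RELB, NFKBIA and BCL3 footprints lie above the controls in both replicates.

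Translational efficiency (TE) is the ratio of footprints to RNA. In the authors' deposited table NFKBIA had the highest TE of the 10 genes, at 1.13 and 1.63 with ADAR1 siRNA and 1.04 and 1.15 with control siRNA. BIRC3 was among the lowest, at 0.0708 and 0.108 with ADAR1 siRNA and 0.0814 and 0.0820 with control siRNA. REL was equally low, at 0.0507 and 0.0829 with ADAR1 siRNA and 0.0633 and 0.103 with control siRNA, and the 2 genes overlapped. BIRC3 RNA thus carried few footprints per unit of RNA on the TPM scale. Among 10002 genes with at least 1 TPM in every library, BIRC3 ranked at percentile 3.9 to 6.0 over the 4 ratios and NFKBIA at percentile 81.7 to 89.4. The median over these genes ran from 0.365 to 0.437.

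TE levels of different genes also depend on the gene lengths behind TPM in each assay. For REL and BIRC3 one Ribo-seq count was worth 3.02 and 2.70 times more TPM, relative to one Input count, than for the median gene; for the other 8 members this ratio lay between 0.526 and 0.996. These are means over the 4 pairs of libraries. For TNFAIP3 the ratio itself ran from 0.948 to 1.11 over the 4 pairs, so its deposited TE values also differ by this much between libraries. NFKB1, NFKB2 and TNFAIP3 were also below the median of all genes, with deposited values of 0.0875 to 0.199 over the 3 genes and 4 libraries. RELA and NFKBIE lay near that median.

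**Figure D4:**
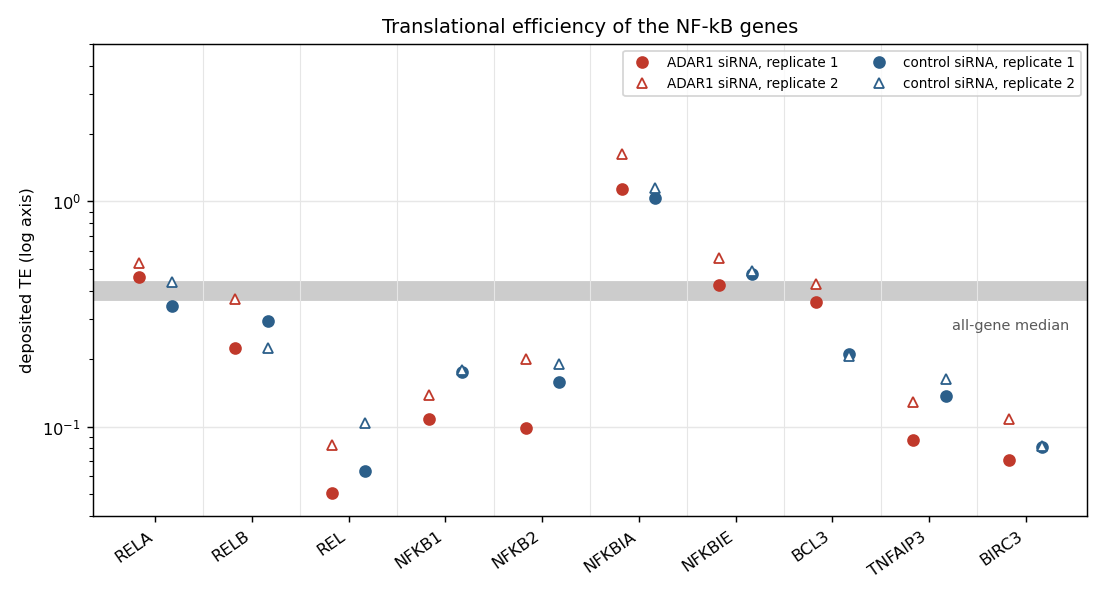
Translational efficiency from the authors' deposited table for each gene and replicate (log axis); red is ADAR1 siRNA, blue control siRNA, filled circles replicate 1, open triangles replicate 2, and the grey band spans the all-gene medians of 0.365 to 0.437. BCL3 is higher with ADAR1 siRNA in both replicates and NFKB1 lower.

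The change in TE was tested as the difference between the footprint and RNA changes over all 8 libraries, which are the same libraries as in the comparisons above. None of the 10 genes passed by edgeR, beside 0.0463% of 12953 tested genes, and 3 of 10 had an unadjusted p under 0.05 (22.7% of tested genes), while DESeq2 and limma-voom called 0 members. The all-gene calls split into 0.0154% higher and 0.0309% lower. Of the 3, 2 were higher (13.2% of tested genes were) and 1 lower (9.48%). These 3 were BCL3, RELA and NFKB1. With siRNA and number as a replicate block edgeR called 1 member, BCL3, beside 1169 genes of all tested. Without a count filter it also called BCL3 alone, beside 854 genes. BCL3 had deposited TE values of 0.357 and 0.431 with ADAR1 siRNA, against 0.211 and 0.205 with control siRNA. Its groups did not overlap, and the edgeR log2 change in TE was 1.10 ± 0.33 (SE; adjusted p = 0.0944). Over left-out libraries the value ran from 0.77, without ADAR1 siRNA Input replicate 2 (edgeR adjusted p = 0.207), to 1.36, without ADAR1 siRNA Ribo-seq replicate 2, the one removal under which it passed (edgeR adjusted p = 0.0173).

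RELA had deposited TE values of 0.462 and 0.531 with ADAR1 siRNA, against 0.343 and 0.440 with control siRNA, and a log2 change in TE of 0.49 ± 0.16 (edgeR adjusted p = 0.105). NFKB1 went the other way, with 0.108 and 0.138 in ADAR1 siRNA, against 0.174 and 0.178 in control siRNA (log2 -0.37 ± 0.15, edgeR adjusted p = 0.185). For both genes the sign was the same under every scaling and whichever single library was left out. TNFAIP3 also lay lower with ADAR1 siRNA in the deposited values (0.0875 and 0.129, against 0.136 and 0.163), but its TE change had a large error (-0.30 ± 0.53). The other 6 genes had log2 TE changes between -0.24 for NFKB2 and 0.43 for NFKBIA, each with an adjusted p of 0.383 or more by edgeR. TE changes were above 0 for 6 of 10, beside 57.3% of tested genes. The median over the 10 was 0.18, beside 0.09 for all tested genes. In the deposited TE, 2 of 10 lay wholly above and 2 wholly below the controls, beside 24.6% and 28.3% of genes.

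Genes that act upstream of NF-kB were read from lists of the pathway. Over all tested genes, 0.253% passed in RNA, 3.54% in Ribo-seq and 0.0463% in TE by edgeR. Of 20 receptors and adaptors, BIRC2 rose in RNA, with 266.2 and 250.7 TPM in ADAR1 siRNA Input, against 175.3 and 176.0 TPM in control Input (log2 0.51 ± 0.06, edgeR adjusted p = 0.0488); the other 19 did not pass. BIRC2 encodes cIAP1 and is the paralogue of BIRC3, which it neighbours on chromosome 11. Estimated counts of both genes were whole numbers in Input and fractional in Ribo-seq. There the counts of BIRC2 were 652.01 and 784.12 with ADAR1 siRNA, against 395.96 and 284.4 with control siRNA. In each Ribo-seq library the BIRC2 and BIRC3 counts added up to a whole number, as when shared reads are split between 2 genes. How they were split is not given, so the 2 footprint values are not independent. BIRC2 footprints had a log2 fold change of 0.71 ± 0.18 (edgeR adjusted p = 0.0555). The 2 ADAR1 siRNA Input replicates of BIRC2 lay close together, unlike those of BIRC3. In Ribo-seq 1 of the 20 rose, TNFRSF1A, the main TNF receptor, with 56.7 and 81.9 TPM with ADAR1 siRNA, against 44.9 and 42.7 TPM with control siRNA (log2 0.70 ± 0.16, edgeR adjusted p = 0.0460). TRAF6, the ligase that relays interleukin 1 and Toll-like receptor signals, fell, with 8.51 and 12.6 TPM in ADAR1 siRNA Ribo-seq, against 28.4 and 26.8 TPM in control Ribo-seq (log2 -1.14 ± 0.19, edgeR adjusted p = 0.0293), and 18 did not pass. TRAF6 was also the one gene of the 4 pathway lists called in TE by edgeR (log2 -1.45 ± 0.20, edgeR adjusted p = 0.0456); its RNA stood at 11.0 and 10.2 TPM with ADAR1 siRNA, against 8.14 and 8.002 TPM with control siRNA (log2 0.33 ± 0.09, edgeR adjusted p = 0.108). TRAF6 counts were whole in Input but fractional in Ribo-seq (234.91 and 316.38 with ADAR1 siRNA, against 519.83 and 417.76 with control siRNA). Reads shared with another gene may therefore enter its footprint and TE values. The lymphotoxin receptor gene LTBR had a footprint log2 fold change of 0.64 ± 0.15 and a TE change of 0.90 ± 0.16, with edgeR adjusted p-values of 0.0504 and 0.0534, and an RNA log2 fold change of -0.24 ± 0.07. TNFRSF1A had a TE change of 0.75 ± 0.17 (edgeR adjusted p = 0.0578). In footprints DESeq2 called TNFRSF1A, LTBR and BIRC2 higher and TRAF6 lower, while limma-voom called TRAF6 alone. In TE DESeq2 called TNFRSF1A, LTBR and IRAK1 higher and TRAF6 lower, and limma-voom called 0 of the 20.

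Of 11 kinases none passed in any comparison by edgeR, and DESeq2 and limma-voom also called 0 in each. At an unadjusted p under 0.05 by edgeR, 2 were higher and 2 lower in RNA, beside 11.8% and 13.5% of all tested genes. In Ribo-seq there were 1 and 1, beside 12.6% and 11.3%, and in TE 2 and 0, beside 13.2% and 9.48%. The kinases with the smallest p-values were TAB2 in RNA (log2 0.28 ± 0.07), a subunit of the TAK1 complex, and IKBKB in TE (0.69 ± 0.21), the catalytic subunit of the IkB kinase, followed by CHUK and IKBKB in RNA (0.25 ± 0.09 and -0.25 ± 0.09) and IKBKE in TE (0.53 ± 0.23). IKBKG, the regulatory subunit NEMO, had the smallest p-value among footprints (-0.71 ± 0.23). It has a near-identical pseudogene, whose part in its counts was not tested. Those counts were whole numbers, at 219 and 371 in ADAR1 siRNA Ribo-seq, against 379 and 361 in control Ribo-seq. TAB2 and MAP3K7 had footprint log2 fold changes of 0.66 ± 0.29 and 0.36 ± 0.16, and TAB3 a TE change of 0.75 ± 0.37. Footprint log2 fold changes of the 11 ran from -0.71 to 0.82 with a median of 0.40, beside 0.05 for all tested genes.

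Among 20 other inhibitors and ubiquitin editors, 1 rose in Ribo-seq and 19 did not pass, beside 1.88% of all tested genes that rose. That one was TNIP1, which encodes a partner of A20, with 41.0 and 42.6 TPM in ADAR1 siRNA Ribo-seq, against 27.1 and 28.7 TPM in control Ribo-seq. The replicates of each group lay close together (log2 0.68 ± 0.15, edgeR adjusted p = 0.0441), while its RNA overlapped between groups at 207.9 and 153.6 TPM with ADAR1 siRNA, against 164.0 and 165.8 TPM with control siRNA. DESeq2 also called TNIP1 in footprints and limma-voom called 0 of the 20. SHARPIN and RBCK1, 2 subunits of the linear ubiquitin ligase, had RNA log2 fold changes of -0.44 ± 0.09 and -0.37 ± 0.08 (edgeR adjusted p = 0.0725 and 0.0795), and the autophagy receptor gene TAX1BP1 one of 0.32 ± 0.07. By edgeR 0 of the 20 passed in RNA and 0 in TE. At an unadjusted p under 0.05 by edgeR, 4 were higher and 5 lower in RNA, beside 11.8% and 13.5% of all tested genes. In TE 4 were higher and 3 lower, beside 13.2% and 9.48%. DESeq2 called 1 in RNA and 2 in TE, and limma-voom 0 and 0. TNIP2, RBCK1 and TAX1BP1 had TE changes of 0.89 ± 0.22, 0.67 ± 0.19 and -0.63 ± 0.18, and TANK and TNIP2 footprint log2 fold changes of 0.55 ± 0.17 and 0.62 ± 0.21. The list median was 0.01 in RNA and 0.07 in footprints, beside 0.00 and 0.05 for all tested genes.

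Target genes of NF-kB outside the 10 were read last. Of 31 listed, 25 were tested in Ribo-seq, where 8 rose, 0 fell and 17 did not pass, beside 1.88% of all tested genes that rose and 1.67% that fell. The list was written with earlier results of these libraries known, so its count is no independent evidence of its direction. The 8 were the chemokine genes CXCL8 (log2 1.78 ± 0.21), CXCL3 (2.69 ± 0.40), CXCL1 (1.75 ± 0.27) and CCL2 (2.42 ± 0.53), the cytokine genes IL1A (2.63 ± 0.51), IL6 (1.68 ± 0.37) and IL32 (1.801 ± 0.33), and the adhesion gene ICAM1 (0.65 ± 0.15). DESeq2 called 6 targets there: CXCL8, IL32, ICAM1, CSF2, PTGS2 and PLAU. It did not call CXCL1, CXCL3, CCL2, IL1A or IL6. By limma-voom 4 were called, CXCL1, CXCL3, CXCL8 and IL32, so only CXCL8 and IL32 were called by every tool. In TPM, 14 of the 25 lay wholly above their controls in Ribo-seq and 3 wholly below, beside 23% and 31.2% of all tested genes. Those 3 were IL1B, CFLAR and IRF1, a trio named after their values were seen. IL1B had 0.663 and 1.093 TPM with ADAR1 siRNA, against 2.97 and 2.22 TPM with control siRNA (log2 -1.49 ± 0.43, edgeR adjusted p = 0.0785), on 13 and 20 estimated counts, against 44 and 28. All but CCL2 were tested in RNA, and ICAM1 (log2 -0.06 ± 0.14) did not share the RNA pattern of the other 6, whose log2 fold changes ran from 1.15 for CXCL1 to 3.48 for IL1A. IL6 RNA stood at 87.5 and 22.8 TPM with ADAR1 siRNA, against 13.6 and 15.0 TPM with control siRNA, the same order of replicates as BIRC3. CXCL1, CXCL2 and CXCL3 are close in sequence. Their Ribo-seq counts were mostly fractional, such as 170.09, 18.58 and 127.33 in ADAR1 siRNA replicate 1. In each Ribo-seq library the counts of the 3 added up to a whole number within rounding, as when shared reads are split between genes. The calls of CXCL1 and CXCL3 are therefore not independent of each other, and CXCL2 was not tested in Ribo-seq. Of 26 targets tested in RNA 0 passed by edgeR, and DESeq2 and limma-voom also called 0. At an unadjusted p under 0.05 by edgeR, 11 were higher and 0 lower in RNA, beside 11.8% and 13.5% of all tested genes. In TE 0 of 29 passed by edgeR, and 4 were higher and 1 lower at an unadjusted p under 0.05, beside 13.2% and 9.48%. There DESeq2 called 3 and limma-voom 0. Low counts kept 6 of 31 out of the Ribo-seq test and 5 out of the RNA test.

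Other targets named for their small p-values were GADD45B in RNA (log2 0.44 ± 0.11), LTB in RNA (3.57 and 2.33 TPM with ADAR1 siRNA, against 0.182 and 0 TPM with control siRNA), and BCL2L1 and PLAU in TE (0.63 ± 0.15 and 0.62 ± 0.20), where ICAM1 had 0.74 ± 0.21. BCL2L1 encodes the survival protein BCL-XL and PLAU the urokinase plasminogen activator. None of GADD45B, LTB, BCL2L1 and PLAU passed by edgeR; DESeq2 called BCL2L1 and PLAU in TE.

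**Figure D5:**
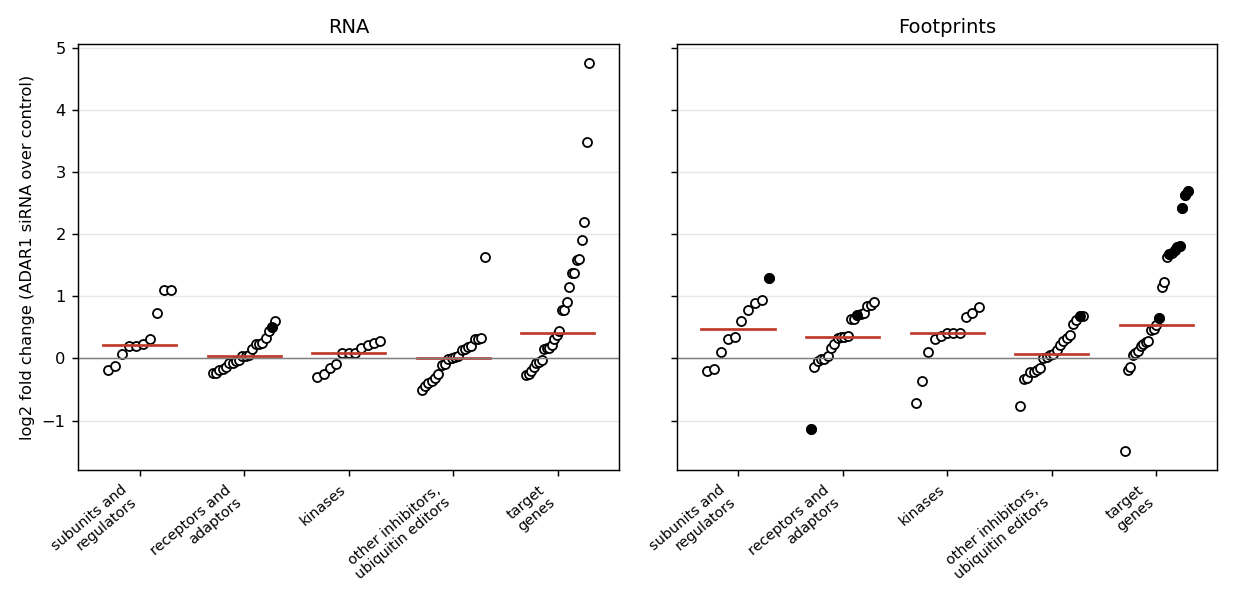
Log2 fold change (ADAR1 siRNA over control siRNA, edgeR) of each tested gene, ordered by value within its list, in RNA and in footprints; red bars are list medians and filled points passed an adjusted p of 0.05. Filled points lie mostly among the target genes in footprints, where 8 rose.

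The members were last compared by the shape of their profiles. Log2 CPM values were centred within each assay and correlated with those of NFKBIA over the 8 libraries. BIRC3 (Pearson r = 0.94), NFKBIE (0.93), RELB (0.92), BCL3 (0.89) and TNFAIP3 (0.84) were most like NFKBIA, whereas RELA (0.50), REL (0.21), NFKB2 (0.20) and NFKB1 (-0.06) were not. Among 10799 genes in all, BIRC3 ranked 66 and NFKBIE 83, and the 5 nearest genes were PACRGL, GPC6, RASSF3, CAMK4 and CMKLR1, with r from 0.98 to 0.99. The 8 points share their siRNA treatments and the high value of ADAR1 siRNA Input replicate 1, so these correlations are descriptions with no p.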

How the data were processed

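RNA and footprint libraries came from size-selected RNA fragments ligated to adapters, per the labels' protocols. Reads were handled with featureCounts, STAR, Bowtie2 and cutadapt on GRCh38 (hg38), per the submitters' processing notes; no source used here gives versions, settings, strand use, any nuclease step or the handling of shared reads. The authors deposited estimated counts per gene without normalization, TPM, and TE as a ratio of Ribo-seq TPM to Input TPM. Of the 19892 gene numbers, 19669 matched a symbol.

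Estimated counts were rounded and tested with edgeR 4.0.16 in R 4.3.3 (TMM scaling, filterByExpr, quasi-likelihood, two-sided, Benjamini-Hochberg over all genes at 0.05): RNA over the 4 Input libraries, footprints over the 4 Ribo-seq libraries, and TE as the assay by siRNA interaction over all 8. SE is the log2 fold change over the square root of F. All 10 members passed the filter. With 2 libraries a group, exact permutation of labels cannot reach the threshold, so calls rest on the spread shared across genes. The test was checked on simulated data. Alternatives used limma 3.58.1 and DESeq2 1.42.0. No replicate pair agreed within counting noise. Members, lists and tests were chosen with earlier results of these data known. The text names all members, list genes that passed, and the 3 of smallest p per list and comparison.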

Additional observations from a re-analysis of the deposited data

How the results depend on the processing

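Of the 10 members, the number called in RNA was 0, but 1 with DESeq2 and 4 with the replicate number as a block (REL, RELB, TNFAIP3 and BIRC3); leaving out single libraries gave 0 to 9. In Ribo-seq it was 1, but 2 with upper-quartile scaling or a mean count of at least 50, 4 without a count filter or with the replicate block, 3 with DESeq2, and 0 with limma-voom or limma on log2(TPM + 1); leave-one-out gave 0 to 6. In TE it was 0, but 1, BCL3, without a filter (edgeR adjusted p = 0.0347) or with siRNA and number as a replicate block (log2 1.10, edgeR adjusted p = 0.0167), and 0 to 1 on leaving out libraries. Over all genes, the RNA count of 32 became 11 with upper-quartile scaling, 95 without a filter, 73 at a mean count of at least 50, 430 with DESeq2, 1 on the TPM scale and 1095 with the replicate block (leave-one-out 0 to 5420). The Ribo-seq count of 425 became 1693 without a filter, 953 with DESeq2, 250 with limma-voom, 12 on the TPM scale and 2102 with the block (77 to 3415). The TE count of 6 became 854 without a filter, 2 at a mean count of at least 50, 976 with DESeq2, 0 with limma-voom, 3 on the TPM scale, 448 with the number as a block and 1169 with siRNA and number as a block (0 to 2252). Same-numbered libraries of the 2 siRNAs did not deviate together (correlation 0.00 in Input and 0.02 in Ribo-seq), so numbers were not taken as pairs across siRNAs. Input and Ribo-seq deviations correlated at 0.38 with ADAR1 siRNA and 0.01 with control siRNA. The deposited TE pairs Input and Ribo-seq by number, but no label says that they share a culture. The main TE test therefore took the libraries as independent.

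Signs turned on leaving out single libraries; the values ran from -0.30 to 0.37 for NFKB2 RNA, -0.15 to 0.48 for NFKBIA RNA, -0.079 to 0.43 for NFKBIE RNA, -0.50 to 0.083 for BCL3 RNA and -0.20 to 0.47 for REL footprints. For TE they ran from -0.35 to 0.90 for BIRC3, -0.60 to 0.057 for NFKB2, -0.80 to 0.25 for TNFAIP3, -0.19 to 0.63 for RELB, -0.15 to 0.34 for NFKBIE and -0.46 to 0.18 for REL. On the TPM scale REL footprints turned to -0.0035 and BIRC3 TE to -0.060. The cause was not tested. Where 1 library of a group remained, it was assumed to vary like the other group's. Low footprint counts limit REL and TNFAIP3 most.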
